A study of Mus musculus with 12 samples.

Results

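The 3 microRNAs described here, miR-1a-3p, miR-133a-3p and miR-206-3p, are best known from striated muscle. They were taken by name from the 616 mature microRNAs listed for embryonic mouse gonads. Small RNA was sequenced from the gonads of CD1 mouse embryos, female and male, at 3 ages (E11.5, then E12.5, then E13.5, in days of embryonic life), and in 2 cell fractions. These are primordial germ cells (PGCs), the precursors of eggs and sperm, and the gonadal somatic cells (SC) left after their removal. Each of the 12 combinations of fraction, day and sex is 1 library, so there is no replicate of any condition. All libraries share the CD1 background, carry no labelled mutation or treatment, and come from pools of about 80 gonads that were freed of the mesonephros and split with anti-CD15 magnetic beads. The labels give a PGC enrichment of 93 to 96% and a somatic purity of over 90%.

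MicroRNAs are short RNAs that guide silencing proteins to messenger RNAs, mainly through the seed at bases 2 to 8. In heart and skeletal muscle, miR-1 and miR-133 are made from shared transcripts, and miR-206 is made in skeletal muscle, where it accompanies myogenic differentiation. miR-1 and miR-206 share a seed, so they can bind many of the same messages, while miR-133 has another and is known for keeping muscle precursors dividing. None of them is a known marker of germ cells or of the supporting cells of the gonad.

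RefSeq (GRCm38.p6) places Mir1a-1 at chr2:180389048-180389124 and Mir133a-2 at chr2:180398379-180398482, 9254 bases apart. Each has a further copy elsewhere, Mir1a-2 and Mir133a-1. How reads matching both copies were counted is not given in the sources used here. Mir206 lies at chr1:20679010-20679082, inside the long noncoding RNA gene Lincmd1 (chr1:20669882-20682958), 3686 bases from Mir133b. Mir499 lies inside Myh7b, a myosin gene of muscle. Of the 3 microRNAs and the other 2 of striated muscle listed in the files, 3 had a RefSeq mature sequence in the table used. They are shown because they carry the 3 seeds of the muscle microRNAs described here: miR-1a-3p has the seed of miR-206-3p, and miR-133a-3p that of miR-133b-3p. Capitals mark the seed.
miR-206-3p (chr1:20679055-20679076, plus strand): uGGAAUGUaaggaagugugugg
miR-133b-3p (chr1:20682834-20682855, plus strand): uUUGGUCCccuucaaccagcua
miR-499-5p (chr2:155622893-155622913, plus strand): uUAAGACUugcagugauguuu

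Levels are given as reads per 1000000 microRNA reads of a library (RPM), with exact Clopper-Pearson 95% intervals that cover counting error only. The deposited value, a count divided by a library size factor, is used where named. Depth ran from 166804 to 1768825 microRNA reads. The size factors did not follow depth: the shallowest library, PGC female E12.5, had 1.58 and the deepest, SC female E11.5, had 0.82. The deposited values of these libraries summed to 105730 and 2158040, so libraries do not have equal totals on the deposited scale. A value of 0 stands for under 5 reads, which is a level under 2.83 to 29.98 RPM depending on the library. The PGC libraries of E12.5 had the highest such floors, 29.98 RPM (female) and 27.1 RPM (male). Ratios given as at least or at most take a library at 0 as 5 reads and leave out counting error.

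The fraction labels were checked against marker microRNAs. The summed level of 6 germ cell microRNAs of the miR-290 cluster was 40200 to 66336 RPM in 5 PGC libraries and 178 to 3594 RPM in SC. It was 1249 RPM in the PGC female E11.5 library, which thus stands apart from its fraction. Both E11.5 PGC libraries also held more of the 4 mesenchymal microRNAs (38314 RPM in the female and 25906 RPM in the male) than the others of their fraction, against 4770 to 15093 RPM in later PGC libraries and 38647 to 67618 RPM in SC. Whether cells of another kind in the fraction or the germ cells themselves carried an RNA cannot be told apart in such libraries, and fewer cells of a type and less RNA per cell cannot be told apart either.

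miR-1a-3p, the most abundant of the 3, was high in both fractions at E11.5, and from E12.5 on it was far higher in SC than in PGCs. In PGCs it stood at 1026 RPM (970 to 1084) in the female and 825 RPM (741 to 915) in the male at E11.5. At E12.5 it was under 5 reads in both sexes, and at E13.5 it stood at 55.8 RPM (24 reads) in the female and was under 5 reads, or 12.7 RPM, in the male. The E11.5 PGC libraries were the high ones, and neither overlapped with any later PGC library. In SC it stood at 1208 RPM (1157 to 1260) and 530 RPM (474 to 591) in female and male at E11.5, 297 RPM and 205 RPM at E12.5, and 227 RPM and 131 RPM at E13.5. The SC levels were thus in the order of age in each sex, and the female was above the male on each day. At its highest miR-1a-3p made up 0.121% of the reads of a library, as the 109th most abundant microRNA of SC female E11.5. In the order of the 9 libraries with a level, only SC female E13.5 and SC male E12.5 are neighbours whose intervals overlap.

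miR-133a-3p, which is made together with miR-1a, was about an order of magnitude lower and showed the same concentration at E11.5. Its PGC levels were 90.1 RPM (74.0 to 109) in the female and 53.1 RPM (33.7 to 79.7) in the male at E11.5, and under 5 reads in the 4 later libraries. Its SC levels were 109 RPM and 103 RPM in female and male at E11.5, 22.1 RPM and 15.9 RPM at E12.5, and 10.04 RPM and under 5 reads at E13.5. The 4 libraries of E11.5 were the 4 highest of the 12. In their order each neighbour's interval overlapped the next, and the only gap beyond counting error lay between PGC male E11.5 and SC female E12.5.

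miR-206-3p, of skeletal muscle, was likewise highest at E11.5 in each fraction and sex. In PGCs it stood at 113 RPM (94.9 to 134) in the female and 34.7 RPM (19.4 to 57.2) in the male at E11.5, and was under 5 reads in the 4 later libraries. In SC females it stood at 182 RPM (163 to 203), 137 RPM (119 to 157) and 13.6 RPM (8.61 to 20.4) in the order of age. In SC males it stood at 45.8 RPM (30.4 to 66.2), 10.1 RPM (5.54 to 17.0) and under 5 reads on the same days. The 3 highest libraries were all female, 1 of them the PGC library that stands apart. The SC female E12.5 level overlapped that of PGC female E11.5 within counting error, and both lay above every male library. The test of sex, given with the other comparisons, passed for it in SC on the deposited scale alone and in PGCs on neither scale.

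**Figure D1:**
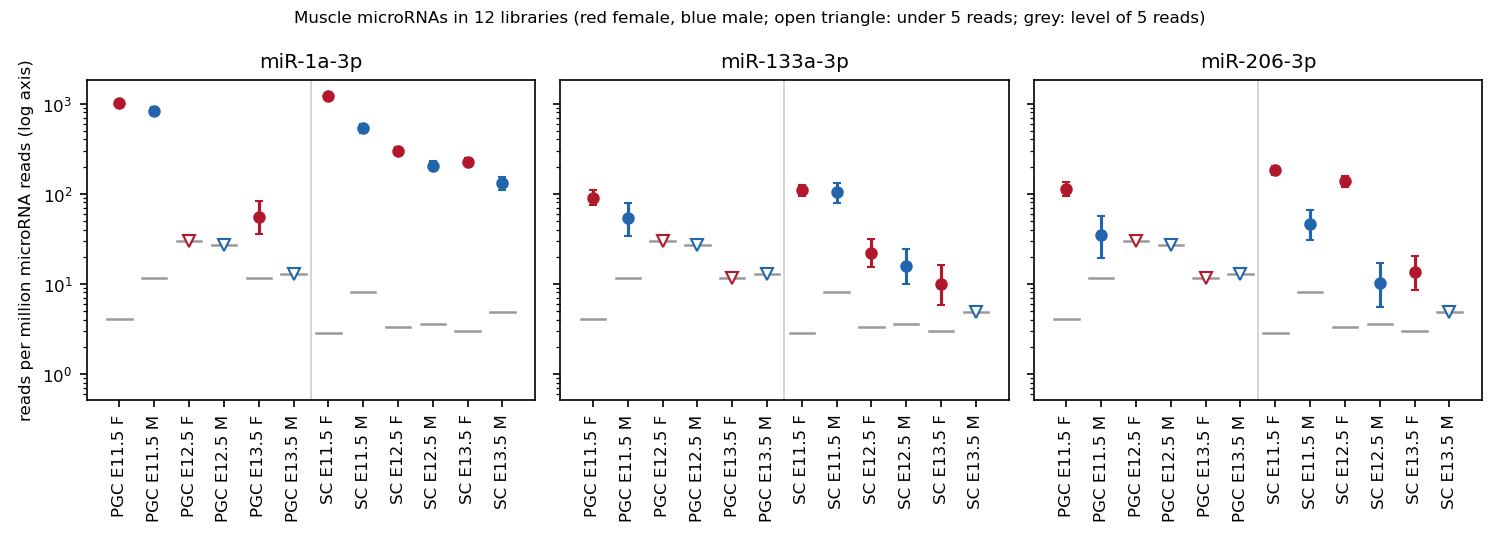
Level of each microRNA in RPM (log axis) in the 12 libraries, with 95% counting intervals as bars, females in red and males in blue. Open triangles mark libraries under 5 reads and stand on the grey line for 5 reads. miR-1a-3p stands at 530 to 1208 RPM in the 4 E11.5 libraries and under 60 RPM in every later PGC library.

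The comparison of PGCs with SC asks which microRNAs mark each fraction. It was tested over the 6 pairs of the same day and sex with limma and Benjamini-Hochberg adjustment over 513 microRNAs. On the deposited scale all 3 members were lower in PGCs, but 77.2% of all tested microRNAs were called lower there, so nothing about the members is read from this count. The fitted log2 difference was -5.07 ± 0.95 (SE, adjusted p = 0.000243, 6 of 6 pairs) for miR-1a-3p, -2.83 ± 0.79 (adjusted p = 0.00322, 5 of 6 pairs) for miR-133a-3p and -3.20 ± 0.87 (adjusted p = 0.0027, 5 of 6 pairs) for miR-206-3p. The median of all 513 was -2.57. After bringing every library to equal totals (RPM), the median was -0.74, 25.5% were called lower, and 1 of 3 members passed. That was miR-1a-3p, at -4.09 ± 1.19 (adjusted p = 0.025, 5 of 6 pairs). miR-133a-3p had -2.21 (adjusted p = 0.0638) and miR-206-3p had -2.59 (adjusted p = 0.0606). Without both E11.5 female libraries the values were -5.79, -3.09 and -3.45 on the deposited scale (adjusted p = 0.00272, 0.00811 and 0.0133), and -4.86, -2.60 and -2.97 at equal totals (0.0254, 0.0418 and 0.0594). With limma-voom on reads none of the 3 passed, at -1.57 (adjusted p = 0.167), -1.04 (0.24) and -1.47 (0.151).

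The single pairs show where the difference lay. At E11.5 the ratio of SC to PGC in RPM was 1.18 (1.097 to 1.26) in females and 0.643 (0.551 to 0.749) in males for miR-1a-3p, so the PGC library was the higher in males. From E12.5 on SC was higher. The ratio was at least 9.92 in females and at least 7.55 in males at E12.5, and 4.08 (2.70 to 6.44) and at least 10.3 at E13.5. For miR-133a-3p it was 1.21 (0.948 to 1.54) and 1.94 (1.19 to 3.28) at E11.5, and no later pair gave a ratio, since the PGC floor lay above the SC level or both were under 5 reads. For miR-206-3p it was 1.61 (1.32 to 1.98) and 1.32 (0.682 to 2.66) at E11.5, at least 4.56 in females at E12.5 and at least 1.17 in females at E13.5. The later male pairs gave none. At these depths a later difference between fractions was therefore not detectable in RPM for miR-133a-3p, and its fitted size rests on the values of 0. With zeros set to 5 reads at equal totals, its difference was 0.23 (adjusted p = 0.651) and that of miR-206-3p was -0.14 (0.838), while miR-1a-3p kept -1.83 (0.0278).

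The span between E11.5 and E13.5 covers the days on which the gonads become ovary or testis. In PGCs all 3 members fell on both scales, against 25.1% of all microRNAs called lower on the deposited scale and 21.4% with totals made equal. miR-1a-3p fell by 6.80 ± 0.93 on the log2 scale (SE, adjusted p = 1.53e-07, both sexes; at equal totals -6.93, adjusted p = 0.00906). miR-133a-3p fell by 5.36 ± 1.16 (adjusted p = 0.000368, and 0.00549 for the change of -6.13 at equal totals). miR-206-3p fell by 5.23 ± 1.14 (adjusted p = 0.000368; with equal totals -5.99, 0.00467). The median of all microRNAs was -0.99, and -0.41 at equal totals. With limma on the PGC libraries alone the deposited changes were the same, but only just passed. The adjusted p was 0.0497 for miR-1a-3p, 0.0389 for miR-133a-3p and 0.0497 for miR-206-3p. Since later libraries stood at 0, the fitted sizes depend on the added 1. In RPM, miR-1a-3p was 18.4-fold higher at E11.5 than at E13.5 in females and at least 64.7-fold in males, miR-133a-3p at least 7.75-fold and 4.17-fold, and miR-206-3p at least 9.72-fold and 2.72-fold. Between E11.5 and E12.5, miR-1a-3p was already at least 34.2-fold and 30.4-fold lower.

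These falls rest partly on the library that stands apart. Without PGC female E11.5, miR-133a-3p had -4.37 (adjusted p = 0.0852) and miR-206-3p -3.79 (0.082), and without PGC female E13.5 miR-206-3p had -4.51 (0.0527). miR-1a-3p passed whichever single library was left out, with changes of -8.65 to -4.95. Without both E11.5 female libraries none of the 3 passed (-7.13, -4.37 and -3.79; adjusted p = 0.112, 0.15 and 0.0807). Some lists of microRNAs of other cell types were lower at E13.5 as well, and others were higher. In PGC female and male, the 2 endothelial microRNAs stood at 51442 and 27782 RPM at E11.5 and at 11230 and 6751 RPM at E13.5, and the 5 erythroid ones at 1951 and 977 RPM and then 200 and 115 RPM. miR-122-5p, the main microRNA of liver, stood at 4280 and 2015 RPM and then under 5 reads in both. Those of smooth muscle, miR-143 and miR-145, stood at 46751 and 32828 RPM and then 11702 and 3472 RPM. Of the 3 neural microRNAs only miR-9-5p reached 5 reads in PGCs. It went the other way, from 981 and 1901 RPM to 3430 and 3416 RPM. So did the 3 of kidney, from 1262 and 1712 RPM to 3551 and 2598 RPM. The 2 arms of miR-202, of gonadal somatic cells, stood at 264 and 155 RPM and then at 3054 and 1063 RPM. The germ cell microRNAs stood at 1249 and 40200 RPM and then at 57530 and 66336 RPM. The part of any such cells in the fall was not tested.

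In SC, 2 of 3 members fell over the same days, against 2.53% of all microRNAs called lower on the deposited scale and 1.36% with totals made equal. miR-133a-3p fell by 5.04 ± 1.16 (SE, adjusted p = 0.000888, and 0.025 for the change of -5.01 at equal totals). miR-206-3p fell by 4.63 ± 1.14 (adjusted p = 0.00195; at equal totals -4.60, 0.0218). miR-1a-3p had -1.85 ± 0.93 (adjusted p = 0.293) and -2.21 at equal totals (0.364), which did not pass. The median of all microRNAs was -0.01, and -0.34 at equal totals. With limma on the SC libraries alone the adjusted p on the deposited scale was 0.0481 for miR-133a-3p and 0.0235 for miR-206-3p. In RPM, miR-133a-3p was 10.8-fold (6.58 to 18.9) higher at E11.5 than at E13.5 in females and at least 21.4-fold in males, and miR-206-3p 13.4-fold (8.78 to 21.4) and at least 9.52-fold. miR-1a-3p was 5.31-fold (4.76 to 5.94) and 4.05-fold (3.30 to 4.98) higher, a smaller difference in both sexes, with the E12.5 level between the others. Because SC male E13.5 was at 0, the sizes of the first 2 depend on the added 1. miR-133a-3p did not pass without SC male E11.5 (-4.75, adjusted p = 0.106) or SC male E13.5 (-3.62, 0.154). With both E11.5 female libraries left out, it had -5.33 (adjusted p = 0.113) and miR-206-3p -4.89 (0.0234). miR-206-3p did not pass without SC female E11.5 (-4.89, 0.0517), SC male E11.5 (-4.38, 0.107) or SC male E13.5 (-4.28, 0.0531).

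In SC the markers of other cells did not all follow this course. The mesenchymal microRNAs stood at 56121 RPM (female) and 38647 RPM (male) at E11.5, then at 67618 and 45741 RPM at E13.5. Those of smooth muscle, miR-143 and miR-145, stood at 59813 and 51197 RPM and then 37978 and 24344 RPM. miR-122-5p stood at 653 and 3023 RPM at E11.5 and at 842 RPM and under 5 reads at E13.5, and the erythroid microRNAs at 1200 and 2068 RPM and then 2454 and 444 RPM. The neural microRNAs stood at 3079 and 245 RPM and then 214 and 117 RPM, with only miR-9-5p detected outside SC female E11.5. Those of endothelium stood at 37105 and 30048 RPM and then 35067 and 16088 RPM. Those of kidney stood at 922 and 1003 RPM and then 891 and 736 RPM. The miR-202 arms stood at 231 and 154 RPM and then 8566 and 19053 RPM, and the germ cell microRNAs at 241 and 178 RPM and then 2435 and 3594 RPM. The neural, smooth muscle, endothelial and kidney levels were thus lower at E13.5 in both sexes, as the levels of the muscle microRNAs were. The erythroid and liver levels were higher in females and lower in males. The mesenchymal, miR-202 and germ cell levels were higher in both. The part of any of these cells was not tested.

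**Figure D2:**
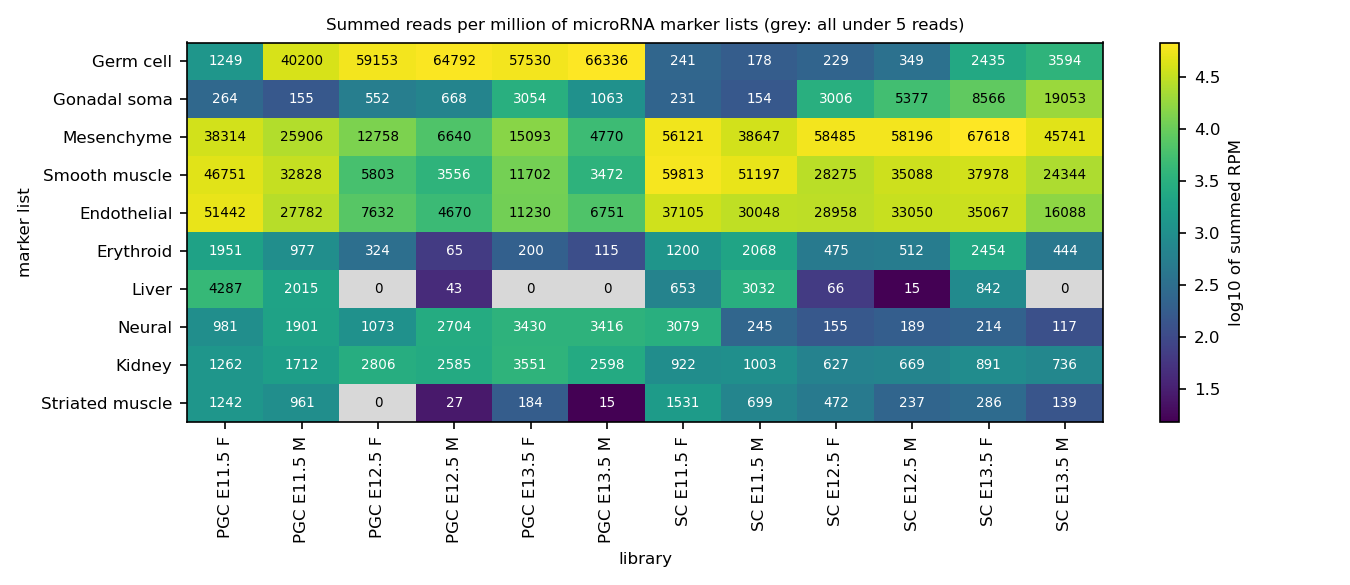
Summed RPM of 10 lists of marker microRNAs (rows) in the 12 libraries (columns), coloured on a log10 scale with the sum printed, grey where every member was under 5 reads. Germ cell microRNAs stand at 1249 RPM in PGC E11.5 F against 40200 RPM or more in the other PGC libraries, and the lists of striated muscle, liver and endothelium are higher in both E11.5 PGC libraries than in later ones.

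Whether the fall differed between fractions was tested as an interaction. On the deposited scale miR-1a-3p fell more in PGCs than in SC, by a log2 difference of -4.95 ± 1.32 (SE, adjusted p = 0.0497), where 0.78% of all microRNAs were called in that direction and the median was -1.22. At equal totals it was -4.73 (adjusted p = 0.211), with 0% called lower by limma (85 of 513 at an unadjusted p under 0.05, and 0 called by limma-voom). The call was lost without 10 of the 12 libraries taken singly, with values of -6.81 to -3.10, and kept without either E13.5 female library. PGC male E13.5 was at 0, so the fitted size for miR-1a-3p depends on the added 1. The difference was -3.71 with zeros set to 5 reads (limma, adjusted p = 0.0822) and -3.10 without that library. In females, with reads on both days, E11.5 was 18.4-fold above E13.5 in PGCs and 5.31-fold in SC. miR-133a-3p had -0.32 (adjusted p = 0.948) and miR-206-3p -0.60 (0.862), so no difference between fractions was detectable for them.

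Females and males were compared within each fraction over the 3 days. In PGCs no member passed on either scale. miR-1a-3p had a female minus male log2 difference of 2.03 ± 0.76 (SE, adjusted p = 0.381), miR-133a-3p 0.66 (0.835) and miR-206-3p 0.96 (0.787). For miR-133a-3p and miR-206-3p the 4 later PGC libraries were at 0. Only E11.5 could show a difference, and its female library is the one that stands apart. miR-1a-3p was at 0 in both sexes at E12.5, and its difference was 0.80 without PGC female E13.5. The test could therefore hardly find a sex difference in PGCs, and no absence of one is read from it. Of all microRNAs, 0.39% were called higher in females as deposited and 0% at equal totals by limma (62 of 513 at an unadjusted p under 0.05, and 0 by limma-voom). In SC, miR-206-3p was higher in females on the deposited scale, by 3.92 ± 0.93 (adjusted p = 0.0144, 3 of 3 days), where 1.17% of all microRNAs were called higher. At equal totals it was 3.15 ± 0.68 and did not pass (adjusted p = 0.638), with 0% called higher by limma (9 of 513 at an unadjusted p under 0.05, and 0 by limma-voom). The others had 1.36 (miR-1a-3p, adjusted p = 0.682) and 2.09 (miR-133a-3p, 0.498).

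By day, the female to male ratio of miR-206-3p in SC was 3.97 (2.70 to 6.08) at E11.5, 13.5 (7.85 to 25.1) at E12.5 and at least 2.82 at E13.5. That of miR-1a-3p was 2.28 (2.03 to 2.57), 1.45 (1.25 to 1.69) and 1.74 (1.42 to 2.13), and that of miR-133a-3p 1.05 (0.788 to 1.42), 1.39 (0.785 to 2.50) and at least 2.09. At E11.5 and E12.5 the interval of miR-206-3p lay above those of both others. These ratios are between single libraries and hold no error between isolations. The call for miR-206-3p was lost whichever SC library was left out, and without either E11.5 PGC library, at 3.69 to 4.09, and with SC libraries alone (adjusted p = 0.644). Without both E11.5 female libraries it was 4.09 (adjusted p = 0.359).

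**Figure D3:**
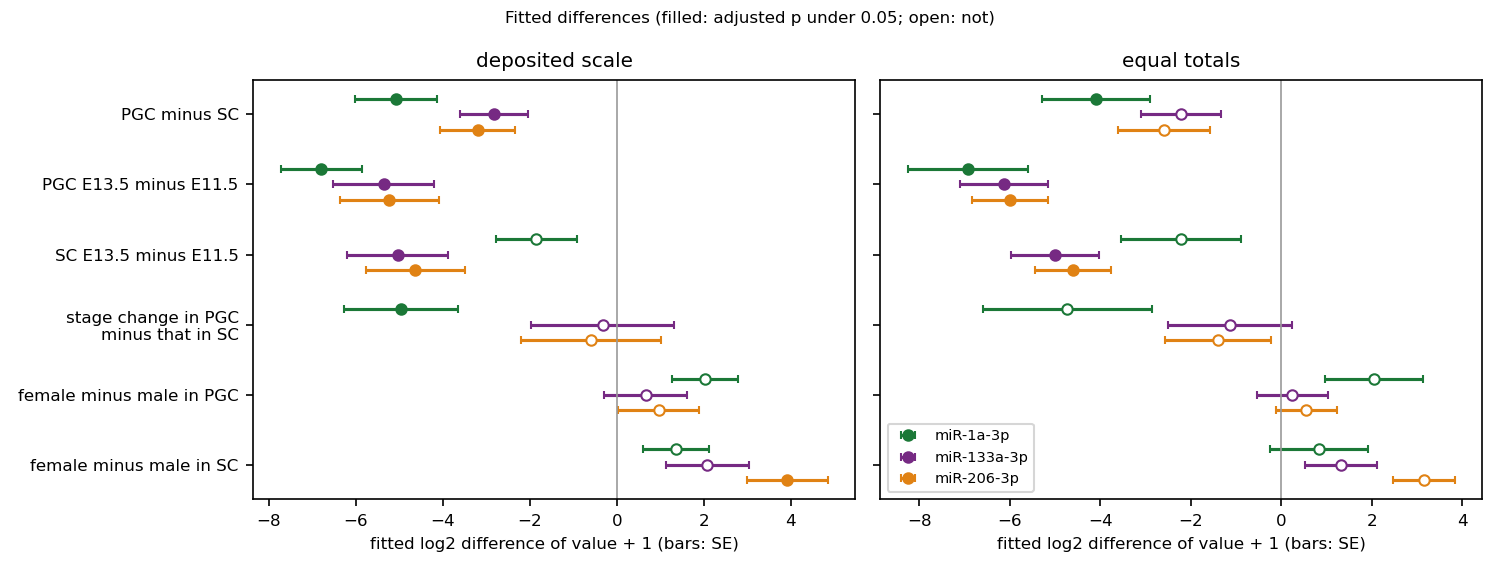
Fitted log2 differences with standard errors for the 6 comparisons on the deposited scale (left) and with equal totals (right), filled where the adjusted p is under 0.05. All 3 members are filled for the stage change in PGCs on both scales, and miR-206-3p for the sex difference in SC on the deposited scale alone.

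Within a library the balance of the members is free of the scale. For every 100 reads of miR-1a-3p there were 8.78 (7.16 to 10.7) of miR-133a-3p in PGC female E11.5, 6.44 (4.03 to 9.82) in PGC male E11.5 and 8.99 (7.71 to 10.4) in SC female E11.5. SC male E11.5 held 19.4 (14.6 to 25.5), above those 3 libraries beyond counting error. SC female and male held 7.43 (5.05 to 10.6) and 7.77 (4.79 to 12.0) at E12.5, and 4.42 (2.55 to 7.16) and at most 3.68 at E13.5. In SC the share at E13.5 thus lay below that at E11.5 in each sex, beyond counting error.

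miR-206-3p varied more. For every 100 reads of miR-1a-3p there were 11.0 (9.17 to 13.1) and 4.20 (2.33 to 7.02) in PGC female and male at E11.5, and 15.1 (13.4 to 17.0) and 8.64 (5.65 to 12.7) in SC at E11.5. SC female E12.5 held 45.9 (38.7 to 54.4), against 4.95 (2.67 to 8.44) in SC male E12.5 and 5.97 (3.74 to 9.10) in SC female E13.5. In that library miR-206-3p read 618 (426 to 922) for every 100 of miR-133a-3p, and in the other libraries with both it read 44.4 to 168. The high ratio is that of a single library.

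**Figure D4:**
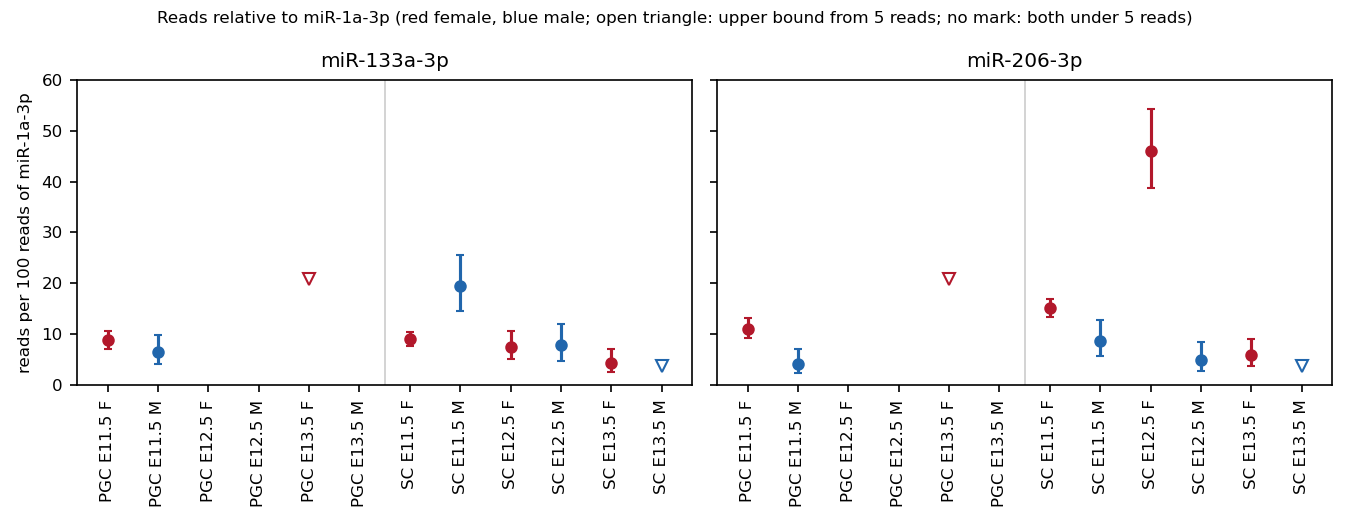
Reads of miR-133a-3p (left) and miR-206-3p (right) for every 100 reads of miR-1a-3p in each library, with 95% counting intervals; open triangles are upper bounds from 5 reads. SC E12.5 F stands at 45.9 for miR-206-3p, above every other library with a ratio.

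The other microRNAs of striated muscle were few. Of 15 in the list, which holds further arms of these hairpins and the cardiac and slow-muscle miR-208 and miR-499, 2 were analysed here. miR-133b-3p, from the hairpin next to Mir206, was found in SC female E11.5 alone, at 8 reads or 4.52 RPM (1.95 to 8.91). That is the deepest library. The level lies under the floors of SC male E11.5 (8.18 RPM) and SC male E13.5 (4.81 RPM). It also lies under those of every PGC library but female E11.5 (11.55 to 29.98 RPM). Those libraries could not have shown such a level. miR-133b-3p closely resembles miR-133a-3p, so reads of either could be assigned to the other. miR-499-5p, processed from a myosin gene's intron, had another order of libraries. Its highest level was 128 RPM (96.3 to 166) in PGC female E13.5, where miR-133a-3p and miR-206-3p were under 5 reads and miR-1a-3p had 24 reads, its only level in PGCs after E11.5. It stood at 13.1 RPM and 48.5 RPM in female and male PGCs at E11.5. In SC it ran from 5.79 to 35.4 RPM. None of the 6 comparisons passed for it on either scale, with -1.43 for PGC minus SC (adjusted p = 0.0781; 0.15 at equal totals, 0.906) and 0.23 for the stage change in PGCs (0.938).

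Over the 12 libraries the members ranked alike. Spearman's rho of the RPM was 0.94 between miR-1a-3p and miR-133a-3p, 0.92 between miR-1a-3p and miR-206-3p, and 0.94 between miR-133a-3p and miR-206-3p. These are descriptions, since the libraries share depth and day, and 3 to 5 of them were tied under 5 reads for each pair. Among microRNAs with a mean of at least 50 RPM, those ranking most like miR-1a-3p were miR-380-5p (0.96), miR-1197-3p (0.96), miR-329-5p (0.96), miR-301a-5p (0.94) and miR-380-3p (0.94). All of these but miR-301a-5p are of the imprinted Dlk1-Dio3 cluster. Those most like miR-133a-3p were miR-301b-5p (0.96), miR-1a-3p, miR-493-3p (0.94), miR-301a-5p (0.94) and miR-450b-5p (0.94). Those most like miR-206-3p were miR-196b-5p (0.94), a Hox-cluster microRNA, miR-218-5p (0.94), miR-409-5p (0.92), miR-1a-3p and the endothelial miR-126a-5p (0.91).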

How the data were processed

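Small RNA shorter than 100 bases was sequenced from 12 libraries. Per the submitters' processing notes, the tools named are FastQC, Trim Galore, Bowtie 1.1.2 and DESeq, with the build GRCm38. How reads were counted is not given in the sources used here. What the authors deposited is a signal per mature microRNA, a read count divided by a library's size factor. Of all 7392 values, 100% were 0 or whole multiples, at a tolerance of 1e-06, of the smallest value divided by 5, so reads were taken back from them; 1797 values are 0 and none stands for 1 to 4 reads. Reads of PCR products without molecular identifiers are not independent molecules.

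Values were tested as log2(value + 1) with limma 3.58.1 (R 4.3.3, empirical Bayes with trend) on 513 microRNAs with a mean value of at least 5, at an adjusted p under 0.05. Simulated data were run through the comparison of fractions alone, not through the other 5. The comparison of fractions had the day-and-sex pair as a block. The fractions were split from pools of gonads, but no label states that both of a pair came from the same pool. The other 5 comparisons came from 1 fit of all 12 libraries with day and sex additive within each fraction (4 residual degrees of freedom). With 1 library per condition, p-values reflect only the scatter among these libraries. All comparisons were repeated at equal totals (RPM). The members, lists and tests were chosen with earlier results of these data known. Named microRNAs are the members, every listed member of the muscle list, and the 5 with the highest Spearman rho to each member. Alternatives were other pseudocounts, filters, scales and treatment of zeros, leaving out libraries, and limma-voom.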

Additional observations from a re-analysis of the deposited data

Results flagged for a closer look

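The change of miR-1a-3p from E11.5 to E13.5 differed between the fractions by the test of the difference itself, on the deposited scale. The log2 change was -6.80 in PGCs, where male E13.5 was at 0 and the size depends on the added 1, and -1.85 in SC. The difference was -4.95 (limma, adjusted p = 0.0497). Under the alternatives tried, single libraries left out included, it stayed past the threshold in 3 and missed it in 18, where the adjusted p was 0.0547 to 0.637. Groups of 1 library allow no search for samples far from their own group.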

How the results depend on the processing

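With 1 library per condition no difference could be set against repeat isolations, and values of 0 hide levels of up to 4 reads, which in the shallow PGC libraries of E12.5 is close to or above every SC level of miR-133a-3p after E11.5. The planned edgeR alternatives were set aside because the deposited values are normalized, and they were not run on the reads taken back either. limma-voom on those reads was added after seeing the data. So were the settings without both E11.5 female libraries and equal totals with zeros at 5 reads. miR-133a-3p has no value with a mean of at least 50, being below that filter. Outside single libraries left out, 124 values kept direction and side of the threshold, results never called included. Of the rest, 33 lost the call, 2 gained it, 11 turned sign and 4 went to 0. Values are log2 differences.

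For PGC minus SC, miR-133a-3p and miR-206-3p missed the threshold without the replicate block (-2.83 and -3.20, adjusted p = 0.0721 and 0.0582) and at equal totals (-2.21 and -2.59). All 3 missed it with voom (-1.57, -1.04 and -1.47). At equal totals with zeros at 5 reads miR-133a-3p turned to 0.23 and miR-206-3p had -0.14, and without both E11.5 female libraries at equal totals miR-206-3p had -2.97. The replicate block was not used in the other comparisons. The numbers that pair fractions are the labels' day and sex.

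For the stage change in PGCs, without both E11.5 female libraries the values were -7.13, -4.37 and -3.79 for miR-1a-3p, miR-133a-3p and miR-206-3p as deposited and -8.23, -5.76 and -5.16 at equal totals, none past the threshold. Leaving out single libraries gave -6.36 to -4.37 for miR-133a-3p and -6.68 to -3.79 for miR-206-3p. In SC, miR-133a-3p missed the threshold without those female libraries (-5.33, and -5.95 at equal totals), and miR-1a-3p passed it with voom (-2.25) and at equal totals with zeros at 5 reads (-2.21). Single libraries left out gave -6.46 to -3.62 for miR-133a-3p and -4.99 to -4.28 for miR-206-3p.

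For the stage change in PGCs minus that in SC, miR-1a-3p missed the threshold at equal totals (-4.73), with pseudocount 5 (-3.70), without a filter (-4.95), with zeros at 5 reads (-3.71, and -2.84 at equal totals), with voom (-3.83) and without both E11.5 female libraries (-6.38, and -6.29 at equal totals), and had -6.81 to -3.10 without single libraries. miR-133a-3p and miR-206-3p, not called in any of these, turned sign with pseudocount 5 (0.57 and 0.32), with zeros at 5 reads (0.56 and 0.28, and 1.32 and 1.05 at equal totals) and without both E11.5 female libraries (0.97 and 1.101, and 0.19 and 0.33 at equal totals), with -1.74 to 1.099 and -2.04 to 0.85 without single libraries.

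For sex in PGCs, miR-133a-3p and miR-206-3p had 0 and 0 without both E11.5 female libraries on either scale, since the remaining days are at 0 in both sexes, and 0 to 0.99 and 0 to 1.45 without single libraries. For sex in SC, miR-206-3p missed the threshold at equal totals (3.15), without a filter (3.92, adjusted p = 0.169), with a mean of at least 50 (3.92, 0.0916), with SC libraries alone (3.92, 0.644), with voom (3.07), with zeros at 5 reads at equal totals (2.31) and without both E11.5 female libraries (4.09, and 3.75 at equal totals), and had 3.69 to 4.09 without single libraries. The cause of these changes was not tested.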

Other observations

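SC female E11.5, the library with the highest level of each of the 3 muscle microRNAs, was also the only one with miR-133b-3p (8 reads) and with the neuronal miR-124-3p (19 reads, 10.7 RPM), and its summed level of the 3 neural microRNAs was 3079 RPM against 117 to 245 RPM in the other SC libraries. These were chosen after their values were seen. SC female E11.5 was also the deepest library. At 10.7 RPM, miR-124-3p would be under 5 reads in every PGC library but female E11.5 (floors of 11.55 to 29.98 RPM). At 4.52 RPM, miR-133b-3p would be so in the same PGC libraries and in SC male E11.5 and E13.5.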
